A study of Rattus norvegicus with 8 samples.

Results

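The cytochromes P450 of families 1 to 3 were examined in rat liver, as the probe sets annotated to exactly 1 gene whose symbol starts with Cyp1, Cyp2 or Cyp3 followed by a letter. There were 34 such probe sets among 31042 in all, for 32 of the 14217 genes that had a probe set of their own. Of these, 24 probe sets of 22 genes varied, meaning that their range over the 8 arrays was above 0.01 log2, and 10 held a single value on every array. No member passed the test between the diets. The largest differences with an unadjusted p under 0.05 were those of Cyp3a18, 1.77-fold higher with Lactobacillus brevis, and Cyp2c23, 1.35-fold higher. Rats on the same diet differed most in Cyp3a9, Cyp2c12 and Cyp2j4.

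These enzymes are haem proteins of the endoplasmic reticulum that insert an oxygen atom from molecular oxygen into a substrate, with electrons delivered by cytochrome P450 reductase and cytochrome b5. Families 1 to 3 handle most drugs and foreign chemicals in the liver, and several of them also hydroxylate steroids, bile acids and fatty acids. Family 1 is under the aryl hydrocarbon receptor (AHR), while many genes of Cyp2b, Cyp2c and Cyp3a respond to the receptors CAR and PXR. In the rat some members are also sex-biased through the pattern of growth hormone release.

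The rats were male Sprague-Dawley animals, 7 weeks old per the labels. For 2 weeks both groups were fed CRF-1, a standard chow, to which cholesterol (10 g per kg) and cholic acid (5 g per kg) had been added. The chow of the L. brevis group further held 10 g per kg of live dried L. brevis 119-2, a lactic acid bacterium from turnip. Each diet was given to 11 rats, and 4 arrays per diet were analysed, each labelled as a biological replicate. For the controls the source label mentions CRF-1 alone, so their cholesterol and cholic acid rest on the design text, and no rats without cholesterol were analysed here.

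The data are log2 signals of single probe sets, already normalized as deposited. Only 20.4% of all probe sets varied, against 70.6% of the members, but brightness differs too: of the 1251 probe sets with a mean above 10, 76.9% varied, and so did all 18 members above that level. A single value on all arrays carries no information on whether rats differed in that gene. Hepatocyte markers such as Ttr and Apoa1 were bright in every liver, with a mean of 13.46 to 13.61 over 5 varying markers. In L. brevis 2, skeletal muscle markers averaged 9.71 over 7 varying genes, against 6.66 to 6.77 in the other rats, and adipose markers averaged 7.90 in L. brevis 3 against 6.58 to 7.02 elsewhere. The GAPDH 5' minus 3' control signal, a measure of how complete the labelled RNA was, ran from -2.93 to -1.83 in control and from -2.20 to -0.68 in L. brevis livers. L. brevis 2 to 4 lay above every control and L. brevis 1 within the control range. This signal of a single control gene thus went largely with the diet, though its difference between the diets was not tested.

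Among family 1 genes, Cyp1a2, which oxidises caffeine and aromatic amines, was the only varying member. Its signals were 10.79, 11.77, 11.54 and 11.50 in control rats 1 to 4 and 10.94, 11.23, 11.52 and 11.04 in L. brevis rats 1 to 4. The diets overlapped almost completely, and control 1 was the lowest of all 8. The L. brevis minus control difference was -0.22 (SE 0.24, 95% interval -0.81 to 0.38, limma). Cyp1a1, the most inducible AHR target, and Cyp1b1 held 6.40 and 6.63 on every array, near the median of 6.63 over all probe sets, and gave no measurable difference. Probe sets differ in how well they bind their target, so signals of different genes are not compared as amounts of RNA.

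The subfamilies Cyp2a, Cyp2b, Cyp2f and Cyp2t lie in a gene cluster on chromosome 1, where no other coding gene separates Cyp2a3, Cyp2a1, Cyp2a2, Cyp2f4 and Cyp2t1 in the RefSeq order. Cyp2a1, a testosterone 7-alpha-hydroxylase, had 9.04, 9.30, 9.22 and 10.05 in control and 10.12, 9.42, 10.46 and 10.49 in L. brevis rats. All but L. brevis 2 exceeded every control, and the difference was +0.72 (SE 0.33, adjusted p = 0.490, limma). With the GAPDH 5' minus 3' signal in the fit it was +0.32 (unadjusted p = 0.520). Cyp2a2, a testosterone hydroxylase of male liver, had 12.86, 12.47, 12.56 and 12.54 in control and 12.61, 12.43, 12.59 and 12.56 in L. brevis rats. Apart from control 1 all its values lay within a narrow band, and the difference was -0.06 (95% interval -0.29 to 0.17). Cyp2f4, which oxidises naphthalene and styrene, had 9.09, 8.92, 9.31 and 9.35 in control and 8.54, 8.67, 9.07 and 9.14 in L. brevis rats. Only L. brevis 1 and 2 lay below all controls, with a difference of -0.32 (SE 0.18, adjusted p = 0.550). Cyp2b3 had 11.75, 11.97, 11.85 and 12.14 in control and 11.96, 12.09, 12.06 and 12.19 in L. brevis rats, a difference of +0.15 (95% interval -0.08 to 0.37) within overlapping groups. Cyp2a3, an enzyme of nasal and lung tissue, and Cyp2t1 held 6.15 and 7.69 throughout, and Cyp2b12 and Cyp2b21 held 5.82 and 5.93.

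All 7 Cyp2c probe sets varied, with means from 11.37 to 13.28 and 6 of them on the higher side with L. brevis (median +0.15). Cyp2c23, the main arachidonic acid epoxygenase of rat kidney that is also made in liver, had 12.73, 12.45, 12.58 and 12.81 in control rats. The L. brevis rats had 12.74, 13.06, 13.34 and 13.19. Rats 2 to 4 of the L. brevis group exceeded every control, and L. brevis 1 lay inside the control range. The means were 12.64 ± 0.16 and 13.08 ± 0.26 (SD, n = 4 each), a difference of +0.44 (SE 0.15, unadjusted p = 0.025, adjusted p = 0.355, limma). It was +0.23 (unadjusted p = 0.289) with the GAPDH 5' minus 3' signal in the fit.

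Cyp2c22 had a wider spread than Cyp2c23, with 11.71, 12.75, 12.17 and 12.76 in control and 11.89, 13.26, 13.26 and 13.73 in L. brevis rats. L. brevis 1 was again low, while rats 2 to 4 exceeded all controls. The difference of +0.69 (SE 0.47, adjusted p = 0.634) turned to -0.44 with the GAPDH 5' minus 3' signal in the fit. Over the 8 rats Cyp2c22 followed that signal, with Pearson r = 0.93 (exact p = 0.00179, adjusted p = 0.0357 over 20 relations) and Spearman rho = 0.88 (exact p = 0.00724, adjusted p = 0.145). Without the 2 rats farthest from the median GAPDH signal r was still 0.93. It was the only member of the 20 past the adjusted threshold by r, and none was past it by rho.

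The probe sets of the sex-biased genes Cyp2c11 and Cyp2c12 were both bright in these livers. Each gene rests on a single probe set, and whether related Cyp2c transcripts add to these signals was not examined. Cyp2c11, the main testosterone 2-alpha- and 16-alpha-hydroxylase of adult males, had 12.64, 12.26, 12.66 and 13.01 in control and 12.08, 13.002, 13.15 and 13.34 in L. brevis rats. L. brevis 1 was the lowest of all 8 rats, and the difference was +0.25 (SE 0.31). It was +0.53 (unadjusted p = 0.042, adjusted p = 0.318, limma) without L. brevis 1 and +0.11 without L. brevis 4. Cyp2c12, a steroid sulfate hydroxylase typical of adult females, was nevertheless bright and uneven. Its control values were 12.35, 10.74, 10.11 and 12.09 and its L. brevis values 11.52, 10.99, 10.80 and 12.40. Controls 1 and 4 and L. brevis 4 were above 12, and the other rats of both diets lay between 10.11 and 11.52. The diet difference of +0.11 (SE 0.64, 95% interval -1.44 to 1.65) was small against SDs of 1.07 and 0.72. As a check of the labelled sex, made after these values were seen, Y-linked Eif2s3y spanned 8.43 to 9.20 over the 8 rats. The 4 probe sets of Xist, the RNA of the inactive X, held single values of 5.46 to 5.91. Such flat values carry no information on whether the rats differed.

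Cyp2c13, also male-typical, spanned 12.38 to 13.13 in control and 12.28 to 13.27 in L. brevis rats (difference +0.10, SE 0.26). Its probe set carries the suffix by which Affymetrix marks probes shared between transcripts, so related transcripts may add to its signal. Cyp2c7, a retinoid and steroid hydroxylase, was the brightest varying Cyp2c set. It had 12.95, 12.99, 13.31 and 13.55 in control and 13.53, 12.98, 13.40 and 13.51 in L. brevis rats, in overlapping groups with low and high rats on both diets (difference +0.15, SE 0.19). Cyp2c6v1 was nearly constant at 13.20 to 13.26, with a difference of -0.0013 (95% interval -0.03 to 0.03). Among members it lay nearest to the 0.01 log2 limit for varying, with a range of 0.0529, and the widest range below the limit was 3.44e-07, that of Cyp2u1.

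The Cyp2d probe sets, of enzymes that oxidise many basic drugs, all varied, with SDs pooled over the diets of 0.050 to 0.301. Cyp2d2 had 12.65, 12.73, 12.97 and 12.90 in control and 12.64, 12.72, 13.03 and 13.03 in L. brevis rats. Rats 1 and 2 of both diets were lower than rats 3 and 4, and the diet difference was +0.04 (95% interval -0.26 to 0.34), or -0.04 under quantile normalization. Cyp2d3 stayed within 12.24 to 12.37, at a difference of -0.03 (95% interval -0.12 to 0.05). Both probe sets of Cyp2d4, an enzyme also found in brain, were dimmer, with means of 8.35 and 7.38 and differences of +0.10 (SE 0.16) and +0.19 (SE 0.21).

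Cyp2e1, which oxidises ethanol and acetone, was the brightest member. It had 13.55, 13.61, 13.60 and 13.61 in control and 13.61, 13.58, 13.71 and 13.65 in L. brevis rats, all within 0.153 log2 of each other. The difference of +0.04 had a 95% interval of -0.03 to 0.12. Members above a mean of 13, namely Cyp2c6v1, Cyp2c7, Cyp2e1, Cyp3a2 and Cyp3a23-3a1, had SDs pooled over the diets of 0.019 to 0.269. Varying probe sets of the whole array at that level had a median pooled SD of 0.085, against 0.220 over all varying probe sets, so small spreads went with high signal. Whether signal near the top of the scale was compressed was not tested.

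**Figure D1:**
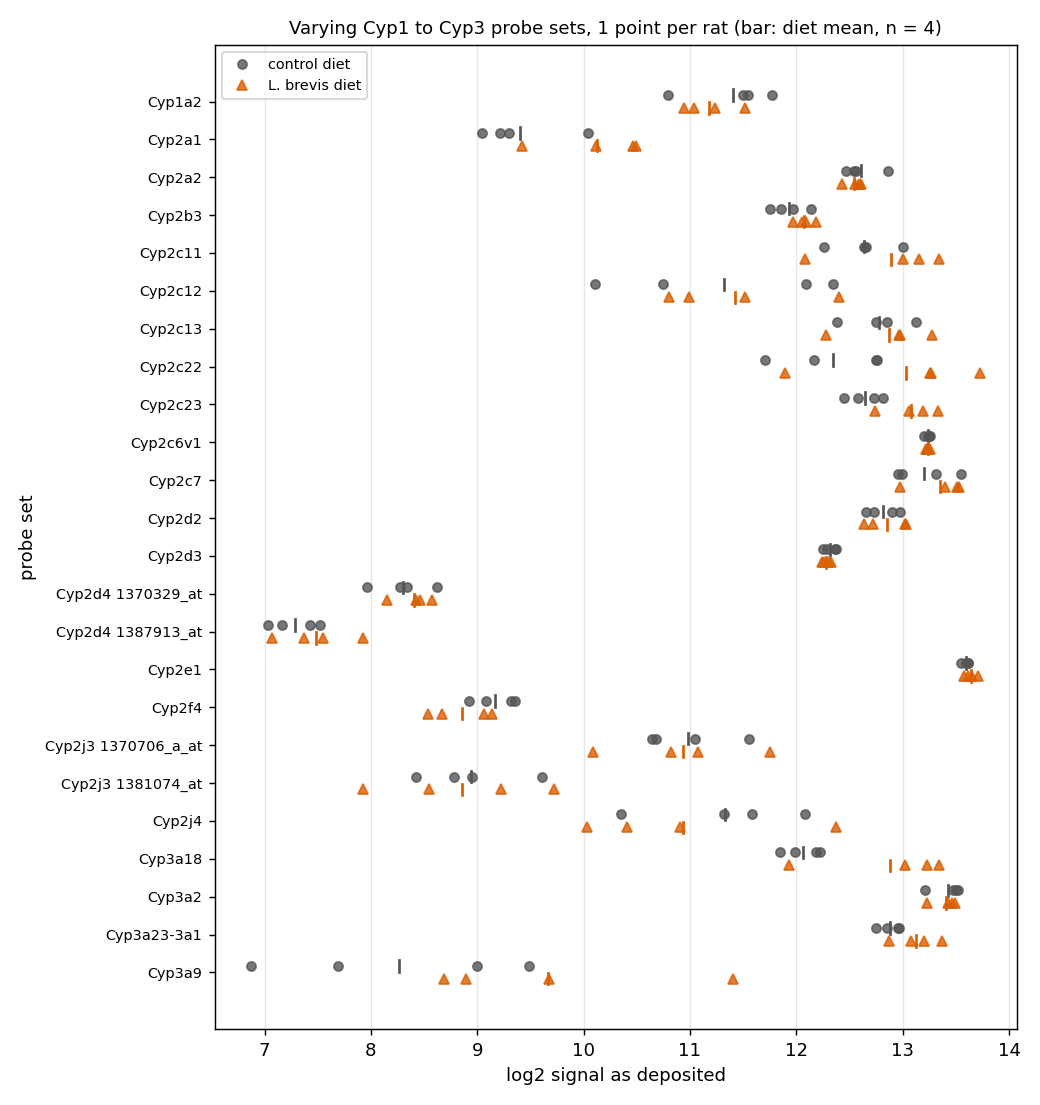
Log2 signal of the 24 varying probe sets in each rat, with control rats as circles, L. brevis rats as triangles and diet means (n = 4) as short bars. All 24 probe sets overlap between the diets, Cyp2e1 and Cyp2c6v1 are nearly constant, and in Cyp3a18 only L. brevis 1, at 11.93, lies among the controls.

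The Cyp2j genes, which encode epoxygenases of arachidonic acid, varied more between rats than between diets. Cyp2j4 had 12.08, 11.32, 11.58 and 10.35 in control and 12.38, 10.90, 10.41 and 10.04 in L. brevis rats. The highest rats were number 1 of each diet and the lowest were number 4 of each diet, a span of 2.34 log2. The diet difference was -0.40 (SE 0.62, 95% interval -1.91 to 1.11), or +1.02 with the GAPDH 5' minus 3' signal in the fit. It was -0.88 without L. brevis 1 and -0.10 without L. brevis 4. Its neighbour Cyp2j3 was measured by 2 probe sets that ranked the rats nearly alike. The brighter had 11.56, 10.68, 11.04 and 10.65 in control and 11.75, 11.08, 10.09 and 10.82 in L. brevis rats. Their correlation over the 8 rats was r = 0.97 (exact p = 0.000198, adjusted p = 0.0189 over 190 pairs), and their diet differences were -0.05 (SE 0.40) and -0.08 (SE 0.46). The spread between rats in Cyp2j3 was therefore seen by both probe sets. Cyp2j10 held 6.52 throughout, as Cyp2g1, an olfactory enzyme, Cyp2s1 and Cyp2u1, a long-chain fatty acid hydroxylase, held 6.36, 6.44 and 7.24.

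The Cyp3a genes, the rat counterparts of the main human drug-metabolising P450, held the 2 largest differences. To show what distinguishes their promoters, the 250 bases upstream of each RefSeq gene start on build GRCr8 follow, 5′ to 3′ on the gene's strand. Capitals mark matches to AGTTCA, the half-site of PXR and CAR, on either strand (reverse complement TGAACT), and to CAAAGTCCA, a site of the liver factor HNF4A. The windows are chr12:14398804-14399053 on the minus strand for Cyp3a23-3a1, chr12:14343858-14344107 on the minus strand for Cyp3a2, chr12:13994062-13994311 on the plus strand for Cyp3a18 and chr12:21960161-21960410 on the minus strand for Cyp3a9.
Cyp3a23-3a1: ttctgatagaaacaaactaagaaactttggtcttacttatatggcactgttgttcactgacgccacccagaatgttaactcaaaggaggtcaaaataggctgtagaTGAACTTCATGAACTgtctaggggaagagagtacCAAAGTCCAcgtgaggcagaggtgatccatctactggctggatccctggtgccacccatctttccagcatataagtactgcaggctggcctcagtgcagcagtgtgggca
Cyp3a2: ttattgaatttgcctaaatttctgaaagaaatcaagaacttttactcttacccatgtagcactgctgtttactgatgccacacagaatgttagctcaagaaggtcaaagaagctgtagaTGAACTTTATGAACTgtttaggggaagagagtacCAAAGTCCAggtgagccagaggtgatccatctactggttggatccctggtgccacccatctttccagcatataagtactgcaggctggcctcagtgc
Cyp3a18: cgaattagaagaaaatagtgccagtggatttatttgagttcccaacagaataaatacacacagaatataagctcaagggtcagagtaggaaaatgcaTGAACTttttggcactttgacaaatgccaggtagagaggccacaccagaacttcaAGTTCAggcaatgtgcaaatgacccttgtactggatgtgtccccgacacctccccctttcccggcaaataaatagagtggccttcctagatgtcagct
Cyp3a9: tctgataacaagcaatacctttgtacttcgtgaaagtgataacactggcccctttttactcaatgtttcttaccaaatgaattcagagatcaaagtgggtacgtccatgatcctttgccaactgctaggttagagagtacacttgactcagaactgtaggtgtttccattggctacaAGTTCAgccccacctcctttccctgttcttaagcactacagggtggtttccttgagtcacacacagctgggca

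In Cyp3a23-3a1 and Cyp3a2, which are neighbours on chromosome 12, 2 AGTTCA half-sites on the minus strand form a direct repeat with 3 bases between, at -144 to -130 and -131 to -117 from the gene start. The capitals also cover those 3 bases. These were the only 2 of 33469 promoters of the same length in the RefSeq table that held this repeat on either strand (0.00598%), and the repeat was searched because it is known from rat Cyp3a genes. Both also held CAAAGTCCA, found in 0.338% of all promoters. Cyp3a18 held 2 separate half-sites and Cyp3a9 held 1. The half-site AGTTCA was present in 9 of the 29 member genes with a promoter in the table, against 12.2% of all promoters. A match describes the letters only.

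Cyp3a2, a testosterone 6-beta-hydroxylase of male liver, had 13.52, 13.21, 13.48 and 13.50 in control and 13.23, 13.47, 13.50 and 13.43 in L. brevis rats. Only control 2 and L. brevis 1 were low, and the difference was -0.02 (95% interval -0.25 to 0.20). Cyp3a23-3a1, the form most inducible through PXR, had 12.85, 12.75, 12.96 and 12.96 in control and 12.87, 13.08, 13.37 and 13.20 in L. brevis rats. L. brevis 2 to 4 exceeded all controls, and the difference was +0.25 (SE 0.12, unadjusted p = 0.073, adjusted p = 0.5002, limma), or +0.10 (unadjusted p = 0.539) with the GAPDH 5' minus 3' signal in the fit. The 2 promoters with the repeat thus stood beside a difference of -0.02 and of +0.25. These differences were not tested against each other.

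Cyp3a18 is another steroid hydroxylase of male liver. Its control values were 11.99, 11.85, 12.22 and 12.19, and its L. brevis values were 11.93, 13.23, 13.02 and 13.34. L. brevis 2 to 4 stood above every control, while L. brevis 1 lay within the control range. The means were 12.06 ± 0.18 and 12.88 ± 0.65 (SD, n = 4 each), a difference of +0.82 (SE 0.33, unadjusted p = 0.046, adjusted p = 0.412, limma; exact permutation p = 0.114). Without L. brevis 1 it was +1.14 and passed the threshold (adjusted p = 0.0452, limma), the only member and rat for which this happened. That omission takes out the only L. brevis rat among the controls. Over all probe sets, fits with single rats left out called 67 to 180, against 44 on all rats. With the GAPDH 5' minus 3' signal in the fit to all rats, the Cyp3a18 difference was +0.31 (unadjusted p = 0.491). L. brevis 1 had the lowest GAPDH signal of its group at -2.20, against -1.30, -0.94 and -0.68. Controls 1 to 4 had GAPDH signals of -2.89, -1.83, -2.93 and -1.98, beside 11.99, 11.85, 12.22 and 12.19 in Cyp3a18. Cyp3a18 was left out of the correlations with the GAPDH signal, and the part of RNA completeness in its values was not tested.

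Cyp3a9, described as higher in female liver, had the largest spread between rats of any member, an SD of 1.20 in control and 1.23 in L. brevis livers. Its values were 9.49, 6.88, 7.69 and 9.001 in control and 9.67, 8.89, 11.40 and 8.69 in L. brevis rats. L. brevis 3 stood far above the others and control 2 far below. The difference of +1.40, 2.64-fold, had an SE of 0.85 and a 95% interval of -0.66 to 3.46 (adjusted p = 0.589, limma). With single rats left out it ran from +0.82, without L. brevis 3, to +1.81, without control 1. With array weights it was +2.37 (unadjusted p = 0.0439, adjusted p = 0.239, limma). In that fit L. brevis 3, the highest rat in Cyp3a9, had the largest weight of all rats, 3.36.

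**Figure D2:**
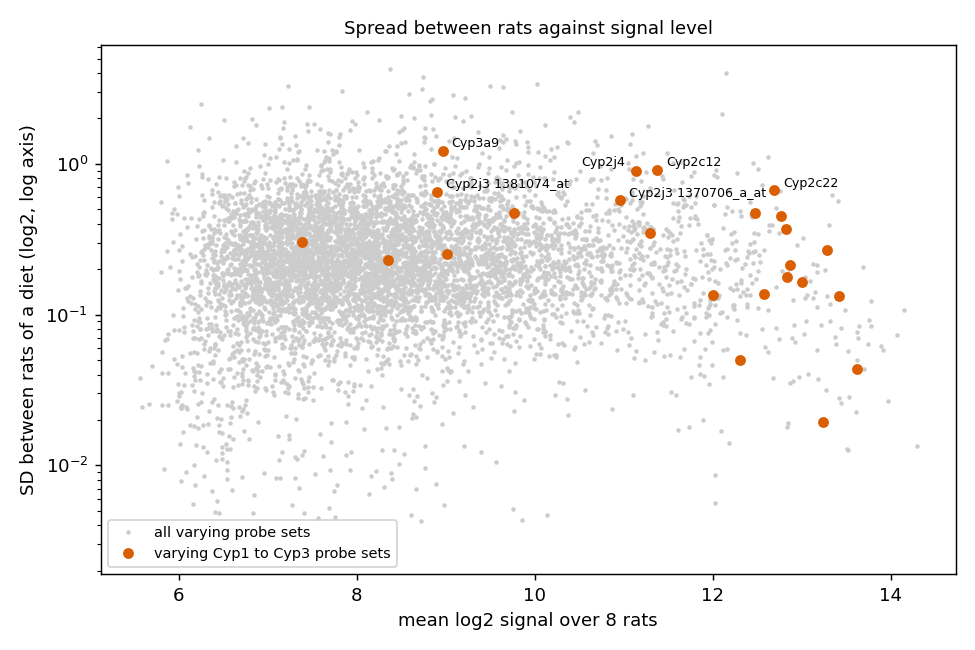
SD between rats of a diet (vertical, log axis) against mean log2 signal over 8 rats (horizontal), with all 6323 varying probe sets in grey and the 24 varying members in orange. The 6 members with an SD above 0.5, which are Cyp3a9, Cyp2c12, Cyp2j4, Cyp2c22 and both Cyp2j3 probe sets, are named.

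Over the 24 varying members, 15 were higher and 9 lower with L. brevis, with a median difference of +0.10. Over all 6323 varying probe sets 46.2% were higher and the median was -0.02. The split of the members was 14 to 10 under quantile normalization, 18 to 6 under median centring and 13 to 11 with the GAPDH 5' minus 3' signal in the fit. By limma 0 of 34 members were called at an adjusted p under 0.05, where 0.142% of all probe sets were. Of the 44 probe sets behind that share only 7 varied, and the others had a range of 0.01 log2 or less. In the fit to varying probe sets 0 of 24 members were called, where 0.0633% of probe sets were. At an unadjusted p under 0.05 there were 2 higher members, Cyp2c23 and Cyp3a18, and 0 lower, against 9.44% higher, 13.5% lower and 22.9% in either direction among all varying probe sets. The fit to varying probe sets had 3 such members of 24, against 24.5%. The diets did not overlap in 0 of 24 members, against 4.21% (higher) and 7.09% (lower) of varying probe sets, and no member had an exact permutation p under 0.05 (smallest 0.0571, where 4 against 4 allows 0.0286). With 24 varying members these shares are coarse, and whether they differ from those of all varying probe sets was not tested. In 15 of 24 members the difference was smaller than the pooled SD between rats. The median 95% interval reached 0.483 log2 to either side, before any adjustment for the number of probe sets.

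**Figure D3:**
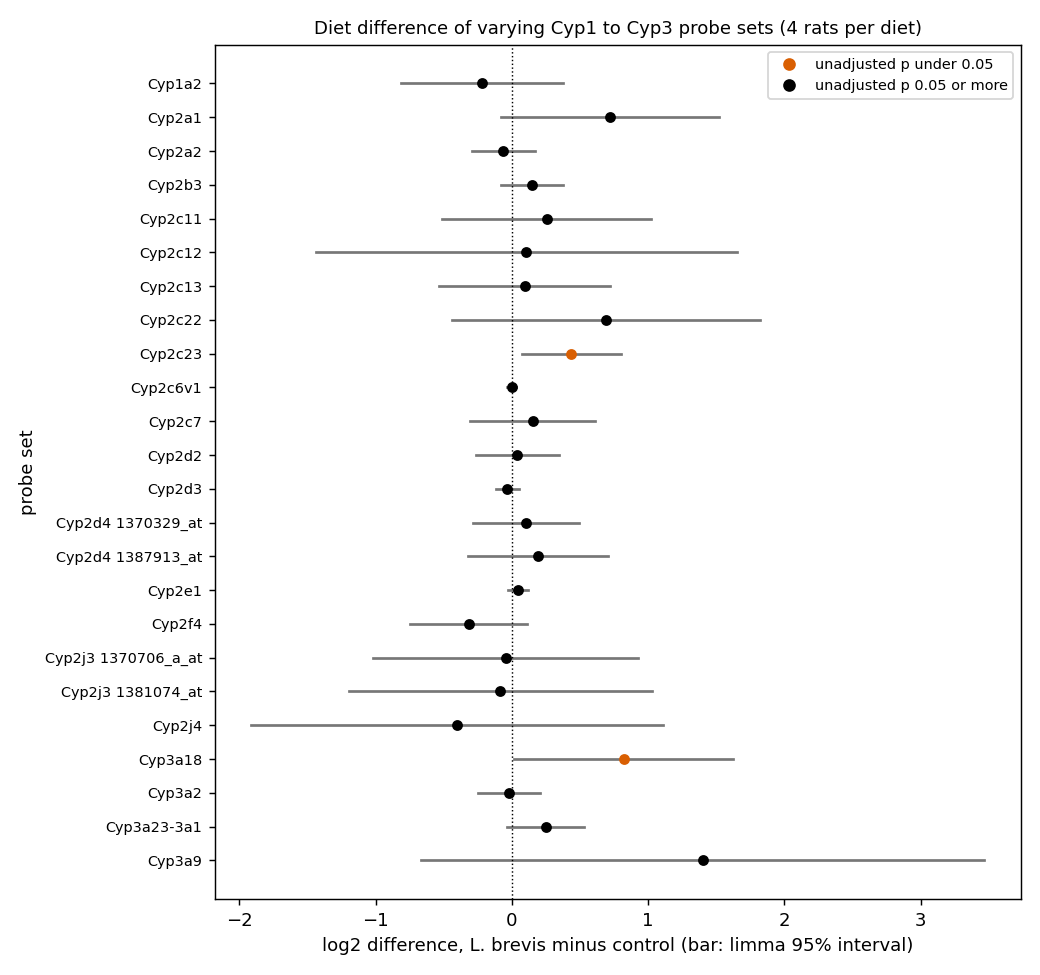
Log2 difference, L. brevis minus control, of each varying probe set (points) with limma's 95% interval (bars), n = 4 per diet. The intervals of 2 probe sets, Cyp2c23 and Cyp3a18, exclude 0, and that of Cyp3a9 runs from -0.66 to 3.46.

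Members were also compared with each other over the 8 rats, leaving out 4 probe sets whose values were split by a wide gap. Of the 190 pairs, 3 had an exact p for r that passed adjustment, among them the 2 probe sets of Cyp2j3 given above. The closest opposite pair was Cyp2c13 and Cyp2j4. Cyp2c13 had 12.38, 12.85, 12.75 and 13.13 in control and 12.28, 12.98, 12.97 and 13.27 in L. brevis rats, so the rats high in Cyp2c13 were those low in Cyp2j4. The correlation was r = -0.97 (exact p = 4.96e-05, adjusted p = 0.00942) and rho = -0.98 (exact p = 0.000397, adjusted p = 0.0377). It was -0.94 without the 2 rats farthest from the median of Cyp2c13, and -0.97 after the mean of each diet was taken out.

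Cyp2c23 and Cyp3a23-3a1 moved in the same direction, with r = 0.94 (exact p = 0.000546, adjusted p = 0.0346) and rho = 0.93 (exact p = 0.00223, adjusted p = 0.0963). Their r was 0.82 without the 2 rats farthest from the median of Cyp2c23 and 0.91 after the diet means were taken out. Several of these probe sets also followed the GAPDH 5' minus 3' signal before adjustment. For Cyp2c23 r was 0.79 (exact p = 0.0239, adjusted p = 0.124) and rho 0.74 (exact p = 0.0458), and r was 0.69 without the 2 rats farthest from the median GAPDH signal. For Cyp2j4 r was -0.78 (exact p = 0.0283, adjusted p = 0.124) and rho -0.76 (exact p = 0.0368), and r was -0.72 without those rats. For Cyp2c13 the values were r = 0.71 (exact p = 0.0511, adjusted p = 0.124), rho = 0.74 (exact p = 0.0458) and 0.69, and for Cyp3a23-3a1 they were r = 0.73 (exact p = 0.0417, adjusted p = 0.124), rho = 0.67 (exact p = 0.0831) and 0.77. Within the control rats alone r with the GAPDH signal was -0.15 for Cyp2c23, -0.37 for Cyp3a23-3a1, -0.72 for Cyp2j4 and 0.74 for Cyp2c13. Within the L. brevis rats it was 0.92, 0.87, -0.999 and 0.97 in the same order. With so few rats per diet, these values cannot show whether the relation to the GAPDH signal held within either diet. The GAPDH signals of the controls also fell into a low and a high pair. The part of RNA completeness in the correlations between members was not tested.

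The promoters of the opposite pair are shown because these genes gave the closest relation between different members. Here capitals mark AGTTCA on either strand, TATAAA on the gene's strand and TTCNNNGAA, the site of STAT factors that relay growth hormone, on either strand. The windows on GRCr8 are chr1:248787189-248787438 on the minus strand for Cyp2c13 and chr5:116323043-116323292 on the minus strand for Cyp2j4.
Cyp2c13: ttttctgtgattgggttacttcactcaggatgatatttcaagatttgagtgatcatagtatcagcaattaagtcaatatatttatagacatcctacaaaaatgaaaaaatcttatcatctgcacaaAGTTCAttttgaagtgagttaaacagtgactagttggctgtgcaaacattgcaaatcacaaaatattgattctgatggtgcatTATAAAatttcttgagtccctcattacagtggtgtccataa
Cyp2j4: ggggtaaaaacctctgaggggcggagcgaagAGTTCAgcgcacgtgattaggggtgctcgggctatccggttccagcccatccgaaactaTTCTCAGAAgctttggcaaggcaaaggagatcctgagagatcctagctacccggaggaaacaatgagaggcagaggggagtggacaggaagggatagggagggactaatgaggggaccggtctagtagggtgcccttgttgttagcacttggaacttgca

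Each window held 1 AGTTCA, at -124 to -119 in Cyp2c13 and at -219 to -214 in Cyp2j4. Cyp2c13 also held TATAAA at -41 to -36, as did 9 of the 29 member promoters and 8.06% of all promoters. Cyp2j4 held TTCNNNGAA at -160 to -152, which was in 2 of 29 member promoters and 7.67% of all. The AHR core GCGTG was in 3 of 29, against 25.9% of all.

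**Figure D4:**
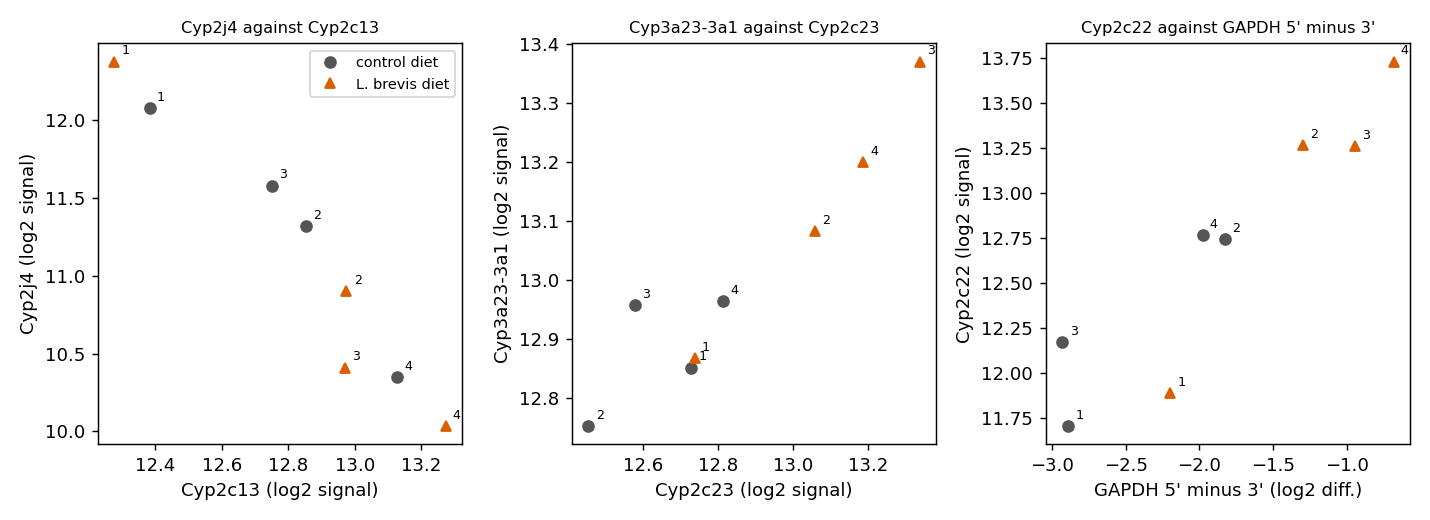
Log2 signals of 8 rats, numbered by replicate within each diet (circles control, triangles L. brevis), for Cyp2j4 against Cyp2c13, Cyp3a23-3a1 against Cyp2c23, and Cyp2c22 against the GAPDH 5' minus 3' signal. The first panel falls (r = -0.97), and the second and the last rise (r = 0.94 and 0.93).

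Genes that serve or regulate the P450 enzymes gave no call either, with 0 members past the adjusted threshold in each of the 6 lists by limma. Of the electron donors 5 of 6 varied, 3 higher and 2 lower (median 0.003). Cyb5a, cytochrome b5, had 12.06, 12.14, 11.90 and 12.42 in control and 12.27, 12.81, 13.05 and 13.04 in L. brevis rats. Its difference was +0.66 (SE 0.21, unadjusted p = 0.0193, adjusted p = 0.347), and as in Cyp3a18 L. brevis 2 to 4 were above all controls and L. brevis 1 among them. Por, the P450 reductase, differed by -0.30 (SE 0.36). Of 11 measured haem genes 4 varied, 2 in each direction (median 0.018), with Alas1, which sets the rate of haem synthesis, at +1.06 (SE 0.63, adjusted p = 0.573).

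Among regulators 13 of 16 varied, 9 higher and 4 lower (median +0.23). Nr1i2, which encodes PXR, held 8.65 on every array, Nr1i3, which encodes CAR, differed by +0.06 (SE 0.26), and Ahr by -0.66 (SE 0.57). Of the 13 varying regulators, 2 had an unadjusted p under 0.05 by limma, against 22.9% of all varying probe sets in either direction. These were the retinoid X receptors, partners of PXR and CAR, Rxra at +0.48 (SE 0.18, adjusted p = 0.379) and Rxrb at -0.44 (SE 0.14, adjusted p = 0.347). The Rxra probe set was dim, with a control mean of 6.91, near the median of 6.63 over all probe sets. Other CAR and PXR targets had 6 of 7 varying members higher (median +0.17), other AHR targets 1 higher and 1 lower, and growth hormone signalling genes 3 higher and 2 lower (median +0.05), with 0 at an unadjusted p under 0.05 in these 3 lists.

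Several of these enzymes are made mainly near the central vein, and markers of the liver zones were counted beside them. Of the pericentral markers 3 varied higher and 4 lower (median -0.16), and of the periportal markers 6 higher and 2 lower (median +0.08), with 0 called in either and 1 pericentral marker lower at an unadjusted p under 0.05. All 5 varying endothelial markers were lower (median -0.41) and 6 of 7 varying macrophage markers higher (median +0.12), again with 0 called. At an unadjusted p under 0.05 there were 3 endothelial markers lower and 2 macrophage markers higher, where 13.5% and 9.44% of all varying probe sets were lower and higher. The diets did not overlap in the endothelial Pecam1 and Kdr (both lower) and the macrophage marker Adgre1 (higher), named after their values were seen. Without overlap, 7.09% of all varying probe sets were lower and 4.21% higher. In the other varying markers of both lists the diets overlapped. In whole liver, fewer cells of a type and less RNA per cell cannot be told apart. The part of zone and cell type markers in the P450 values was not tested.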

How the data were processed

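Liver RNA of 8 rats was measured on 8 Affymetrix arrays, 4 per diet, and the 8 value columns were matched to the samples by name. The deposited values are log2 signals, 1 per probe set and array. The method by which the authors summarised and normalized them was not given in the sources used here. Scan dates were not used, so no batch was examined. The scale was read from the values, with array medians of 6.61 to 6.63. No counts or background flags are in the table, so precision rests on how many arrays there are.

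Probe sets were named from the platform annotation, with symbols updated through gene identifiers in the RefSeq table of assembly GRCr8. This changed 0 of the 34 member symbols, and all 32 member genes were found in that table. The diet difference (L. brevis minus control) was estimated for each of 31042 probe sets, Affymetrix controls left out, by lmFit and trended eBayes of limma 3.58.1 (R 4.3.3). The test was two-sided, with Benjamini-Hochberg adjustment over the whole table and a threshold of 0.05. Intervals are limma's 95% intervals. A second fit used the 6323 varying probe sets alone. Simulated data with 200 varying, above-median probe sets shifted by 1 log2 unit gave 33.5% recovered with 4 false calls in the fit to 31042 probe sets, and 65.5% with 3 false calls in the fit to 6323. At 2 log2 units the shares were 85.5% with 8 false calls and 96% with 11.

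Correlations between probe sets are over the 8 rats, with exact two-sided permutation p-values over all orders of the rats (Python 3.11.15, scipy 1.17.1). Probe sets with a gap between neighbouring values above 0.5 of their range were left out of correlations, also where the gap set a single rat apart. Promoter windows are 250 bases upstream of the RefSeq gene start.

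Values in every rat are given for the brightest varying probe set of a subfamily, for members at an unadjusted p under 0.05, for members whose diets do not overlap, and for the 3 with the largest spread. Other genes whose rats are listed were chosen after their values were seen, as were the correlations and the motifs. The members and all gene lists were chosen with earlier results of these data known.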

Additional observations from a re-analysis of the deposited data

Results flagged for a closer look

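Of 48 groups of 4 rats, 2 per varying member, 1 held a rat far from the other 3. In Cyp3a2, control 2 had a log2 signal of 13.21, against 13.48 to 13.52 in controls 1, 3 and 4. Chance marks about 1 in 20 such groups.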

How the results depend on the processing

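The numbers of members called (0) and varying (24) and their median difference (+0.10) were compared under each alternative. The median kept its sign throughout and stayed within 1 SD (0.116) of its value, from 0.029 to 0.212 when single rats were left out. Members called were 0 under every alternative on all rats, and 0 to 1 with single rats left out, the 1 being Cyp3a18 without L. brevis 1. Over all probe sets 44 were called, of which 7 varied, and the fit to varying probe sets, which leaves out the flat ones, called 4. The other counts were 21 among bright probe sets, 0 under quantile normalization, 4 under median centring, 77 with array weights, 128 with the replicate block, and 67 to 180 with single rats left out. The causes were not tested. Same-numbered rats correlated in their deviations from the diet means at 0.359, 0.203, 0.0778 and 0.381 for numbers 1 to 4, all positive. In 2 of 4 cases a control rat correlated best with its own number. The labels state no pairing, and the main fit did not pair the rats by number. Whether the numbers mark a shared factor was not tested. The exact p-values of the correlations between probe sets take no account of such a factor. With the block the member differences and the count of 0 members called were the same. Unadjusted p-values moved, to 0.0669 for Cyp2c23 and 0.0717 for Cyp3a18, and to 0.0264 for Cyp2b3, 0.0394 for Cyp2c22 and 0.0237 for Cyp2f4.

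The sign changed in at least 1 alternative for 15 of the 24 varying members, none of them called. Under quantile normalization this was Cyp2d2 (-0.0399). Under median centring these were Cyp2c6v1 (0.036), Cyp2d3 (0.0025) and Cyp3a2 (0.014), and with array weights Cyp3a2 (0.057). With the GAPDH 5' minus 3' covariate these were Cyp2a2 (0.054), Cyp2b3 (-0.046), Cyp2c11 (-0.24), Cyp2c12 (-0.10), Cyp2c13 (-0.49), Cyp2c22 (-0.44), Cyp2c6v1 (0.018), Cyp2d2 (-0.12), Cyp2d3 (0.030), the brighter Cyp2d4 probe set (-0.034), Cyp2e1 (-0.00086), Cyp2j3 (0.79 and 0.85) and Cyp2j4 (1.02). With single rats left out, ranges that crossed 0 were -0.11 to 0.023 for Cyp2a2, -0.30 to 0.45 for Cyp2c12, -0.038 to 0.29 for Cyp2c13, -0.012 to 0.0049 for Cyp2c6v1, -0.019 to 0.11 for Cyp2d2, -0.0073 to 0.21 for Cyp2d4, -0.32 to 0.24 and -0.37 to 0.22 for Cyp2j3, and -0.095 to 0.036 for Cyp3a2. Cyp1a2 and Cyp2c22 kept their sign with each single rat left out, from -0.42 to -0.095 and from 0.46 to 1.07. The correlations, rerun after the data were seen, kept their sign without each rat, from -0.98 to -0.95 for Cyp2c13 with Cyp2j4, 0.91 to 0.98 for Cyp2c23 with Cyp3a23-3a1 and 0.95 to 0.98 for the Cyp2j3 probe sets. Background flags were not used, and 4 rats per diet limit every comparison.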
